A study of Mus musculus with 15 samples.

Results

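The genes described here encode the proteasome and its partners in mouse oocytes. They are the protein-coding genes whose GENCODE vM21 symbol starts with Psm, a letter from a to g and a digit, which gave 50 members among 55401 gene identifiers and 21897 protein-coding genes. By role they were 8 alpha and 7 constitutive beta subunits of the core, 4 inducible or tissue-restricted beta subunits, 6 ATPases, 3 non-ATPase base and receptor subunits and 8 lid subunits of the cap, 3 cap assembly chaperones, 4 core assembly chaperones, 6 activators or inhibitors, and Psmc3ip. The last of these matches the symbol but encodes a partner of meiotic recombination and is no proteasome subunit. The rule uses the symbol and no measured value, though it was set with earlier results of these data known.

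The proteasome degrades proteins marked with ubiquitin. Its core is a barrel of stacked alpha and beta rings whose beta subunits cut the chain, and its cap recognises ubiquitin, removes it and unfolds the substrate with a ring of ATPases. In oocytes this degradation is known for removing cyclin B and securin during the meiotic divisions, and proteasome mRNAs are part of the store that a growing oocyte lays down.

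The study asked whether neurotrophin-4 (NT-4), a growth factor that signals through TRKB, helps preantral follicles to grow in culture. All oocytes came from ovaries of Kunming mice, for which the labels give an age of 12 to 14 days for the series and no separate age for IVV, and each library held RNA from a pool of 6 oocytes amplified by SMART-Seq2, a poly(A)-primed protocol without molecular identifiers. The 5 groups of 3 libraries were oocytes that grew in the animal (IVV), oocytes of follicles after 10 days of culture with no NT-4 (IVG) or with NT-4 added (IVG-NT), and the same after 6 days (IVG day 6 and IVG-NT day 6). Per the study's methods the libraries of a group came from 3 repeated experiments, and oocytes of all groups were at the germinal vesicle stage. IVV oocytes were taken by puncture of antral follicles. In such pools, fewer oocytes of a given state and less RNA per oocyte cannot be told apart.

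The libraries held 5.95 to 55.6 M counts, and replicates 1 and 2 of IVG-NT day 6 were the shallowest at 5.95 and 7.13 M. An rRNA locus of the annotation, CT010467.1, held between 12.5% and 37.9% of the counts of 9 libraries, called rRNA-rich, and between 0.187% and 0.714% in the 6 called rRNA-poor. The rRNA-rich libraries were IVV replicate 3 and replicates 1 and 2 of each cultured group, so IVV held 1 of them and every cultured group 2. All 12 oocyte markers, among them Zp3, Gdf9 and Ddx4, had counts in every library, and their summed level was 10530 to 19434 CPM in the rRNA-rich and 22123 to 28943 CPM in the rRNA-poor libraries. Markers of granulosa cells summed to 58.2 to 294 CPM.

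Transcription of proteasome genes is known to be raised together by the factor NRF1 (Nfe2l1) through antioxidant response elements. RefSeq promoters of GRCm38.p6, each 300 bases around an annotated start, were found for 42 members. The element's core, TGACNNNGC on either strand, occurred in 6 of them (Psmb5, Psmb6, Psmc6, Psmd12, Psmd9 and Psme4), which is 13.3% of the members' 45 promoters beside 12.4% of all 32851 promoters. The CCAAT box occurred in 15 members, in 33.3% of member promoters and 37.4% of all, and the GC box GGGCGG in 23 members, in 53.3% of member promoters and 35.7% of all. The catalytic subunits Psmb5 and Psmb6 are shown for the element's core, and Psma7, the alpha subunit with the highest mean level, for its GC boxes. The 250 bases before each RefSeq start are printed 5′ to 3′, with the core of the element in capitals for Psmb5 (chr14:54617996-54618245, minus strand) and Psmb6 (chr11:70525107-70525356, plus strand) and the 5 GC boxes, of which a pair overlaps, in capitals for Psma7 (chr2:180042465-180042714, minus strand).
Psmb5: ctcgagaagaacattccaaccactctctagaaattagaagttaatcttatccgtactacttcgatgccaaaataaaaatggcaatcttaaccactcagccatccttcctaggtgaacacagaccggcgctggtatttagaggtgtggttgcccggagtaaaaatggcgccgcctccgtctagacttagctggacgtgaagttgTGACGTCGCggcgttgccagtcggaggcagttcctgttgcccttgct
Psmb6: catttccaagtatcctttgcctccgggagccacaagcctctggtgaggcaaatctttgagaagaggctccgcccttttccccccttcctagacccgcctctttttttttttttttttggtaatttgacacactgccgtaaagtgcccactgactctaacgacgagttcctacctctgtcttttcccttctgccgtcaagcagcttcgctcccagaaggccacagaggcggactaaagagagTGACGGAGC
Psma7: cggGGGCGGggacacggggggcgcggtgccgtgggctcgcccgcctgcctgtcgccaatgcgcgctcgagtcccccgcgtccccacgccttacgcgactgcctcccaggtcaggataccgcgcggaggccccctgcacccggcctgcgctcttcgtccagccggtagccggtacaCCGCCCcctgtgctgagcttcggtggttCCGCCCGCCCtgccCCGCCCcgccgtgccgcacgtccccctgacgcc
A match gives the letters only and says nothing of binding in these oocytes.

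The 50 members took 0.256% to 0.397% of all counts in rRNA-rich libraries and 0.972% to 1.21% in rRNA-poor ones. The ranges did not overlap, and within each of the 5 groups the rRNA-poor libraries were the higher ones. Among the rRNA-poor libraries, the share was 1.05% in both of IVV, 1.11% in IVG and 1.21% in IVG-NT, and on day 6 it was 0.972% without NT-4 and 1.17% with it. The kinds of library differed more than the groups did within a kind.

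**Figure D1:**
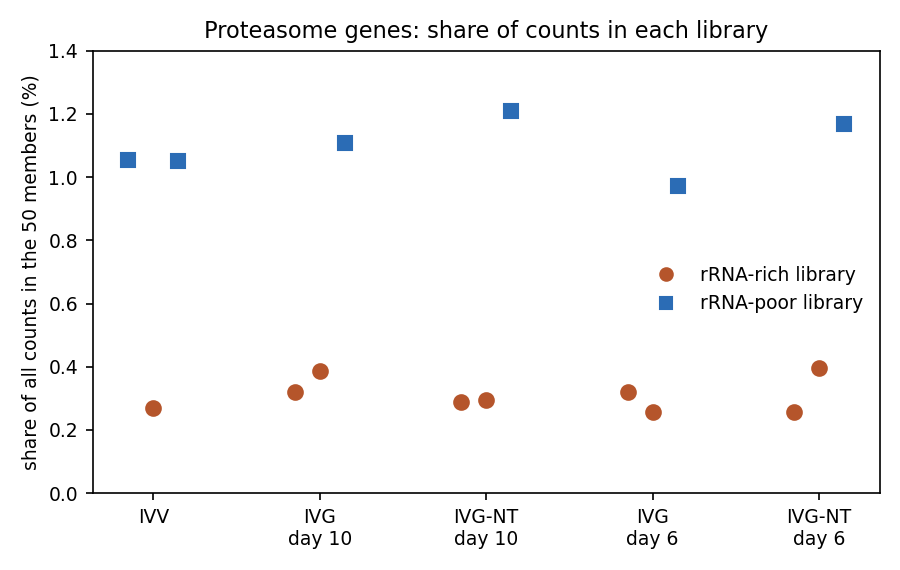
Share of all counts in the 50 members (y axis, percent) in each library by group (x axis), with rRNA-rich libraries as circles and rRNA-poor libraries as squares. Circles lie between 0.256% and 0.397% and squares between 0.972% and 1.21% in every group.

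Levels between genes were compared as FPKM, counts scaled to the union of a gene's exons and to the library's total. Ranks, also those within a kind of library, hold for this length only. Scaled to the longest transcript, the means of Psmb6 and Psma7 over all libraries would lie above that of Psmb2. Psmd2 and Psmd5 would then be the lowest of their classes in place of Psmd1 and Psmd9. In rRNA-poor libraries core subunits were the most abundant, with a median over the 14 constitutive and alpha subunits of 143 to 191 FPKM, while the median of the 17 cap subunits was 31.2 to 63.2 FPKM. The core median was 2.27 to 5.06 times the cap median in rRNA-poor and 0.977 to 2.43 times in rRNA-rich libraries. A core subunit was the highest member in 6 of 6 rRNA-poor and 3 of 9 rRNA-rich libraries, and in the other 6 it was Psmc5, Psmc1 or Psme3. The order of the 49 members' FPKM was alike within a kind, with Spearman correlations across genes of 0.93 to 0.99 between rRNA-poor libraries and 0.75 to 0.99 between rRNA-rich ones. With replicate 1 or 2 of IVG-NT day 6 in the pair, the correlations were 0.30 to 0.78. Pairs share their protocol but differ in depth, and genes are no replicates.

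**Figure D2:**
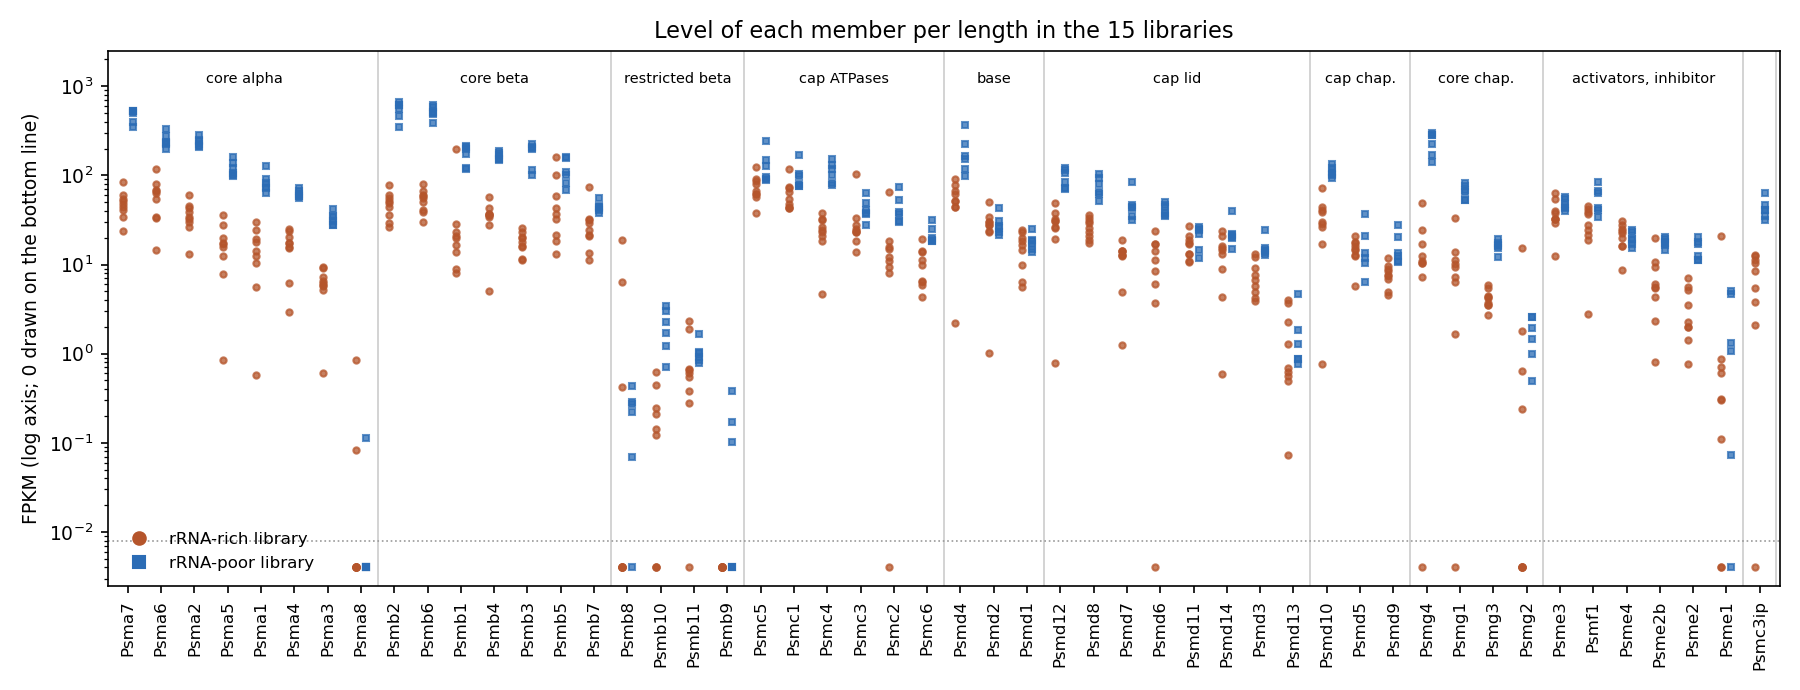
FPKM of each member (y axis, log scale, 0 drawn under the dotted line) in the 15 libraries, ordered by class and mean level, with rRNA-rich libraries as circles and rRNA-poor libraries as squares. Core subunits reach the highest values, up to 668 FPKM in a rRNA-poor library, while Psmb9 and Psma8 lie lowest.

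Alpha subunits form the outer rings of the core and its gate. Psma7 was the highest, with a mean of 217 FPKM over the 15 libraries, and Psma3 the lowest of the 7 tested, with 16.9 FPKM. In the rRNA-rich libraries Psma6 was the highest, with a mean of 59.4 FPKM, and Psma7 came next. Values by library are given in replicate order, which is 2, 3, 4 in IVV and 1, 2, 3 elsewhere, as CPM on TMM-normalised library sizes. Psma7 stood at 1436, 191 and 1362 normalised CPM in IVV, 149, 145 and 1287 in IVG, 148, 119 and 1465 in IVG-NT and, on day 6, 193, 192 and 873 without NT-4 and 79.3, 325 and 991 with it. Psma3 stood at 97.1, 26.0 and 106 normalised CPM in IVV, 39.7, 35.9 and 87.4 in IVG, 33.4, 26.5 and 146 in IVG-NT and, on day 6, 26.4, 29.2 and 113 without NT-4 and 2.53, 25.2 and 109 with it. In both genes the rRNA-poor libraries of each group were the high ones, on both days and with or without NT-4. Psma8, the alpha subunit of the testis, had 12 and 40 counts in IVV replicates 2 and 3, 9 in IVG replicate 2 and 0 in the other 12 libraries, and it was the only member that did not pass the filter on low counts.

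Constitutive beta subunits include the 3 catalytic ones, Psmb5, Psmb6 and Psmb7. Psmb2, a structural beta subunit, had the highest mean level of all members over the 15 libraries at 246 FPKM, and Psmb6 followed at 238 FPKM. The rRNA-poor libraries carried this rank, with means of 542 and 514 FPKM for these genes. Their exon unions have 1204 and 1872 bases and their longest transcripts 859 and 966, so by the longest transcript Psmb6 would be above Psmb2. In the rRNA-rich libraries the cap ATPase Psmc5 had the highest mean, 74.1 FPKM, and of the constitutive beta subunits Psmb5, with 53.8 FPKM. Psmb7 was the lowest of the class at 35.0 FPKM over all libraries, while in the rRNA-rich ones Psmb3 was the lowest. By library, Psmb2 stood at 657, 50.2 and 711 normalised CPM in IVV, 58.0, 61.7 and 536 in IVG, 42.2, 36.0 and 659 in IVG-NT and, on day 6, 69.1, 72.6 and 453 without NT-4 and 78.8, 115 and 346 with it. Psmb6 stood at 851, 122 and 832 normalised CPM in IVV, 119.8, 124 and 927 in IVG, 112, 88.2 and 992 in IVG-NT and, on day 6, 154, 136 and 739 without NT-4 and 78.4, 70.3 and 588 with it. Both followed the kind of library with no overlap. Psmb7 stood at 124, 115 and 132 normalised CPM in IVV, 80.6, 109 and 104 in IVG, 100.04, 82.2 and 138 in IVG-NT and, on day 6, 111, 56.4 and 157 without NT-4 and 40.8, 316 and 122 with it. Its kinds overlapped, and IVG-NT day 6 replicate 2 was the highest library. Psmb5 stood at 66.4, 13.6 and 53.9 normalised CPM in IVV, 21.4, 28.4 and 72.7 in IVG, 39.2, 18.7 and 89.4 in IVG-NT and, on day 6, 55.2, 111 and 115 without NT-4 and 41.6, 178 and 118 with it, again with its highest value in that library.

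The inducible subunits Psmb8, Psmb9 and Psmb10 replace the catalytic ones in the immunoproteasome, and Psmb11 does so in the thymus. In IVV, IVG, IVG-NT and IVG day 6 the 3 inducible genes together held 0% to 0.656% of the summed FPKM of inducible and catalytic subunits, and in IVG-NT day 6 they held 16.7%, 2.33% and 0.206% in replicates 1, 2 and 3. In replicates 1 and 2 Psmb8 alone made up these values. It stood at 0.859, 0 and 1.30 normalised CPM in IVV, 0, 1.41 and 0.739 in IVG, 0, 0 and 0.678 in IVG-NT and, on day 6, 0, 0 and 0.191 without NT-4 and 67.8, 26.5 and 0 with it. The high values rested on 375 and 152 raw counts in the shallowest libraries. Replicate 1 also held 272 counts of Csf1r and 276 of Psme1, and its 7 macrophage and leukocyte markers summed to 53.7 CPM, of which 3 had a count, with Ptprc, Adgre1 and C1qa at 0. In replicate 2 all 7 markers and Psme1 were at 0 while Psmb8 was at 26.5 normalised CPM. The part of such cells in the Psmb8 values was not tested further.

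Psmb10 stood at 3.50, 1.21 and 5.16 normalised CPM in IVV, 0.393, 0.748 and 2.36 in IVG, 0.50, 0.237 and 4.58 in IVG-NT and, on day 6, 0.252, 0 and 0.986 without NT-4 and 0, 0 and 1.70 with it. IVV replicate 4 was the highest, and in every group the rRNA-poor libraries were the higher ones. Psmb9 had 60 and 27 counts in IVV replicates 2 and 4, 17 in IVG replicate 3 and 0 in the other 12 libraries. Its exons overlap those of Tap1 on the other strand, which had 0 to 1125 counts, and the protocol does not mark strand. Psmb11 stood at 3.39, 10.4 and 3.84 normalised CPM in IVV, 3.48, 2.88 and 4.05 in IVG, 2.21, 3.69 and 3.65 in IVG-NT and, on day 6, 2.70, 13.7 and 4.02 without NT-4 and 1.45, 0 and 6.47 with it, with overlapping groups.

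The ATPases of the cap form the ring that unfolds substrates. Psmc5 was the highest at a mean of 97.4 FPKM and Psmc6 the lowest at 14.9 FPKM. Psmc5 stood at 113, 98.9 and 118 normalised CPM in IVV, 141, 173 and 142 in IVG, 103, 105 and 187 in IVG-NT and, on day 6, 123, 96.6 and 100.15 without NT-4 and 119, 65.3 and 279.5 with it. Psmc6 stood at 59.1, 26.4 and 56.3 normalised CPM in IVV, 53.5, 66.0 and 51.0 in IVG, 41.1, 57.5 and 62.8 in IVG-NT and, on day 6, 40.6, 26.8 and 72.2 without NT-4 and 22.2, 18.6 and 91.3 with it. In both, the ranges of the kinds overlapped. Psmc1 stood at 138, 96.0 and 131 normalised CPM in IVV, 138, 141 and 159 in IVG, 109, 97.5 and 169 in IVG-NT and, on day 6, 109, 102 and 120.3 without NT-4 and 246, 174 and 265 with it. Psmc3 stood at 87.6, 83.5 and 85.2 normalised CPM in IVV, 72.3, 84.8 and 103 in IVG, 71.9, 70.5 and 94.8 in IVG-NT and, on day 6, 62.7, 58.3 and 59.6 without NT-4 and 38.7, 334 and 135 with it. For Psmc1 the 3 libraries of IVG-NT day 6 were above the other 12, and for Psmc3 that group held both the highest and the lowest library.

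Psmd4, the cap's ubiquitin receptor, was the highest non-ATPase of the base at a mean of 108 FPKM, and Psmd1, the scaffold that holds the base, the lowest at 16.5 FPKM. Psmd4 stood at 246, 166 and 379.9 normalised CPM in IVV, 205, 218 and 370.5 in IVG, 148, 201 and 561 in IVG-NT and, on day 6, 129, 176 and 268 without NT-4 and 276, 7.66 and 851 with it. Psmd1 stood at 119, 82.7 and 109 normalised CPM in IVV, 148, 167 and 147 in IVG, 126, 167 and 124 in IVG-NT and, on day 6, 123, 56.6 and 89.6 without NT-4 and 43.2, 217 and 82.3 with it. For Psmd1 the 3 IVG libraries were all above the 3 of IVV. In the lid, Psmd12 was the highest at 54.6 FPKM and Psmd13 the lowest at 1.6 FPKM. Psmd12 stood at 171, 77.7 and 165 normalised CPM in IVV, 112, 128 and 254 in IVG, 102, 93.7 and 251 in IVG-NT and, on day 6, 83.5, 62.3 and 184 without NT-4 and 74.3, 2.61 and 249 with it. Psmd13 stood at 2.66, 5.03 and 2.26 normalised CPM in IVV, 2.58, 2.06 and 5.05 in IVG, 0.294, 2.17 and 2.62 in IVG-NT and, on day 6, 13.9, 15.2 and 3.53 without NT-4 and 1.81, 9.57 and 13.1 with it. The level of Psmd13 was low in every library, and its exons overlap those of Sirt3 on the other strand. Psmd14 is the deubiquitinase that removes the ubiquitin chain, and it stood at 54.3, 13.9 and 50.6 normalised CPM in IVV, 40.4, 40.6 and 34.2 in IVG, 52.2, 52.6 and 49.9 in IVG-NT and, on day 6, 69.4, 71.0 and 50.2 without NT-4 and 1.81, 31.5 and 91.4 with it. Psmd11, which joins lid and base, stood at 82.9, 127 and 66.3 normalised CPM in IVV, 91.5, 106 and 113 in IVG, 99.8, 153 and 149.6 in IVG-NT and, on day 6, 69.9, 85.8 and 129 without NT-4 and 128, 213 and 127 with it.

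Among the cap chaperones Psmd10 had the highest mean level, 64.2 FPKM, and Psmd9 the lowest, 11.1 FPKM. Psmd10 stood at 138, 48.5 and 130.0 normalised CPM in IVV, 48.3, 58.4 and 111 in IVG, 46.8, 66.2 and 178 in IVG-NT and, on day 6, 66.7, 30.5 and 147 without NT-4 and 115, 1.39 and 130.0 with it. Psmd9 stood at 71.8, 41.2 and 86.0 normalised CPM in IVV, 77.7, 85.0 and 72.8 in IVG, 59.9, 70.8 and 134 in IVG-NT and, on day 6, 55.3, 79.1 and 63.1 without NT-4 and 59.8, 41.2 and 164 with it. The kinds did not overlap for Psmd10 apart from IVG-NT day 6 replicate 1. Among the core chaperones, which assemble the alpha ring, Psmg4 had a mean of 103 FPKM and Psmg2 of 1.87 FPKM. Psmg4 stood at 148, 6.67 and 138 normalised CPM in IVV, 6.68, 5.76 and 99.7 in IVG, 8.27, 4.57 and 141 in IVG-NT and, on day 6, 14.0, 11.6 and 76.0 without NT-4 and 0, 34.1 and 64.3 with it. Psmg2 stood at 4.04, 1.27 and 3.96 normalised CPM in IVV, 0, 0.408 and 1.39 in IVG, 0, 0 and 0.772 in IVG-NT and, on day 6, 3.20, 0 and 2.77 without NT-4 and 0, 33.1 and 2.09 with it. The value of Psmg2 was above 5 in a single library, IVG-NT day 6 replicate 2, where it rested on 190 counts.

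Of the activators, Psme3 (PA28 gamma, of the nucleus) held 12.6 to 63.5 FPKM and Psme4 (PA200) 8.70 to 30.8 FPKM. Psme1 with Psme2 (PA28 alpha and beta) together held 1.43 to 24.9 FPKM, and Psme2b, not in that sum, 0.803 to 20.6 FPKM. Psme3 stood at 126, 216 and 143 normalised CPM in IVV, 105, 111 and 136 in IVG, 193, 134 and 116 in IVG-NT and, on day 6, 99.4, 117 and 104 without NT-4 and 92.3, 45.9 and 95.3 with it. Psme4 stood at 140.3, 193 and 144 normalised CPM in IVV, 209.7, 205 and 156 in IVG, 280.4, 229 and 116 in IVG-NT and, on day 6, 267, 164 and 167 without NT-4 and 78.4, 168 and 118 with it. Neither gene was higher in rRNA-poor libraries as the core genes were. Psme1 stood at 9.88, 1.82 and 9.02 normalised CPM in IVV, 0.758, 1.88 and 1.90 in IVG, 0.294, 0 and 2.64 in IVG-NT and, on day 6, 0.684, 1.65 and 0.132 without NT-4 and 49.9, 0 and 0 with it. Psme2 stood at 28.0, 11.5 and 31.6 normalised CPM in IVV, 3.87, 3.45 and 24.2 in IVG, 7.39, 4.64 and 19.6 in IVG-NT and, on day 6, 12.7, 11.1 and 16.2 without NT-4 and 1.45, 3.13 and 16.2 with it. Psme2b stood at 13.2, 19.2 and 12.3 normalised CPM in IVV, 5.08, 3.58 and 9.84 in IVG, 5.59, 5.85 and 14.7 in IVG-NT and, on day 6, 8.03, 10.8 and 12.3 without NT-4 and 0.723, 2.44 and 14.2 with it. Psme2 and Psme2b are near copies whose reads may have been split between them, so the values of each are uncertain. Psmc3ip, the recombination factor, stood at 56.8, 7.88 and 65.4 normalised CPM in IVV, 17.1, 18.7 and 46.5 in IVG, 24.5, 11.3 and 67.7 in IVG-NT and, on day 6, 23.8, 27.4 and 69.4 without NT-4 and 0, 4.70 and 94.2 with it, with all 6 rRNA-poor libraries above the 9 rRNA-rich ones.

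**Figure D3:**
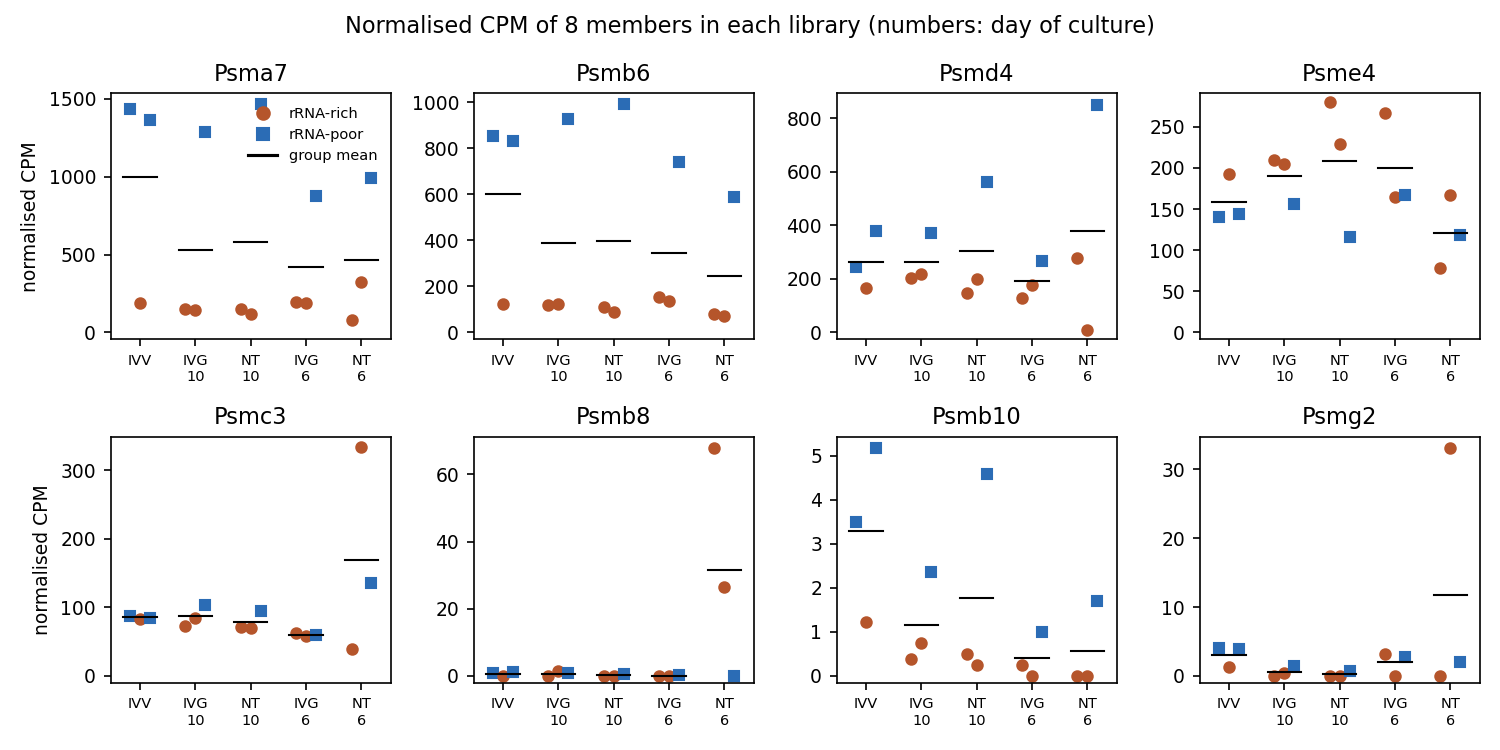
Normalised CPM (y axis, linear) of 8 members in each library by group (x axis), with rRNA-rich libraries as circles, rRNA-poor ones as squares and group means as lines. Psma7 and Psmb6 separate by kind of library, Psme4 and Psmc3 do not, and Psmb8 is high in 2 libraries of IVG-NT day 6 alone.

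In 21 of the 49 members tested, all rRNA-poor libraries were above all rRNA-rich ones, which held for 10.3% of the 21009 genes tested. No member had the reverse order, which held for 2.88% of genes. The 21 were all 7 alpha subunits tested, 4 of 7 constitutive beta subunits, 4 of 8 lid subunits, 3 of 4 core chaperones, 1 of 6 ATPases, Psme2 and Psmc3ip. The median log2 ratio of rRNA-poor over rRNA-rich means was 1.14 over the members and -0.08 over all genes, and it was 3.39 for Psmg4, -0.35 for Psmd2 and -0.51 for Psme4. The ratio ran with the length of the longest annotated transcript, with Spearman's rho of -0.56 over the 49 members and -0.48 over 15510 protein-coding genes, a description across genes that share their libraries. The median ratio was 1.78 in the 18 members of 555 to 1430 bases, 1.26 in the 16 of 1509 to 2401 bases and 0.21 in the 15 of 2634 to 6491 bases.

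**Figure D4:**
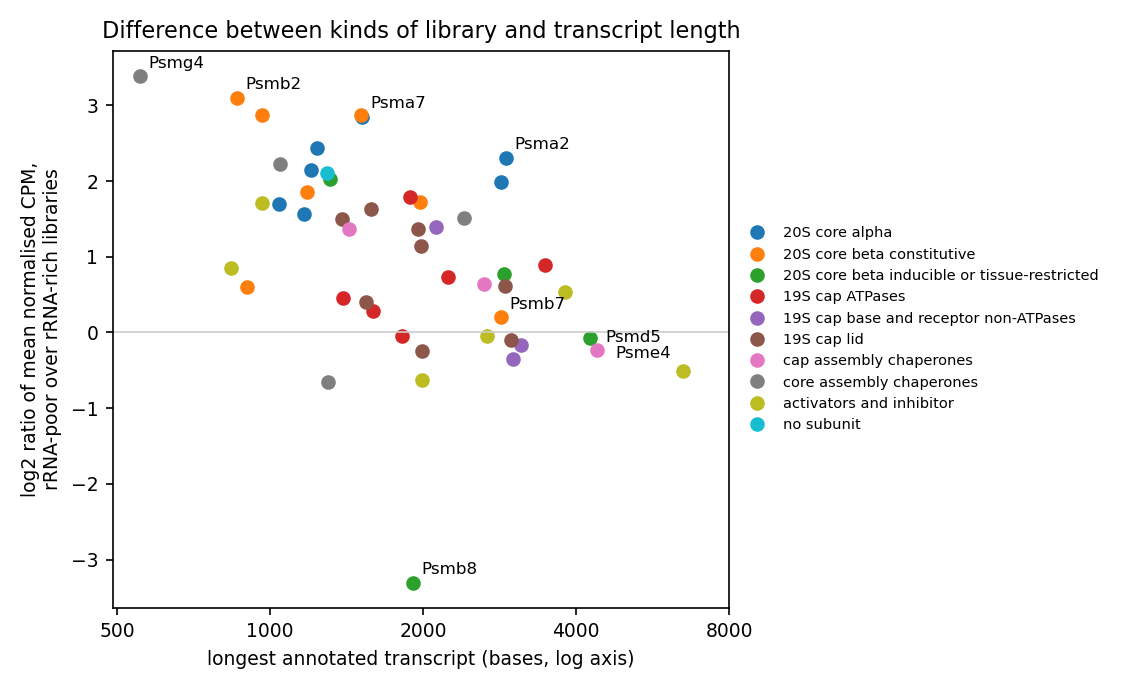
Log2 ratio of mean normalised CPM in 6 rRNA-poor over 9 rRNA-rich libraries (y axis) against the longest annotated transcript (x axis, bases, log scale) for the 49 members tested, coloured by class. Psmg4, with the shortest transcript, lies at 3.39 and Psme4, with the longest, at -0.51, while Psmb8 is set apart by 2 rRNA-rich libraries.

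In IVG against IVV, no member was a DEG, that is a log2 fold change beyond 1 with an unadjusted P under 0.05, which 2.76% of genes were. By edgeR 0 genes and 0 members had an adjusted p under 0.05 in any of the 6 comparisons, while 261 to 2661 genes and 0 to 2 members had an unadjusted P under 0.05. By DESeq2 42 to 704 genes had an adjusted p under 0.05, among them 1 member in 1 comparison, Psmb8 in IVG-NT against IVG on day 6. The median fold change of the members was -0.38 on the log2 scale, beside -0.20 for all genes, with all 7 alpha and all 7 constitutive beta subunits at negative values (medians -0.49 and -0.63) and 5 of 6 ATPases at positive ones (median 0.14). These medians moved with the kind of library, of which IVV held fewer rRNA-rich ones. With kind as a covariate the members' median was 0.11, that of the alpha subunits 0.30 and that of the ATPases 0.55, and in rRNA-poor libraries alone they were -0.18, -0.21 and 0.25, without a test.

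The libraries of IVG lay all above IVV for Psmd1, Psmc5 and Psmc1 and all below for Psmb7 and Psme2b, so 5 members did not overlap, beside 11.9% of genes. Psmd1 differed by less than the spread allows to call (log2 fold change 0.57 ± 0.65 (SE), adjusted p = 1). For Psmc5 edgeR gave log2 fold change 0.47 ± 0.62 (SE), adjusted p = 1. Psme2b had the smallest P of the members (log2 fold change -1.27 ± 1.13 (SE), adjusted p = 1). Psme2 (log2 fold change -1.17 ± 1.15 (SE), adjusted p = 1) and Psmg2 (log2 fold change -2.36 ± 2.31 (SE), adjusted p = 1) had the next smallest P, and Psmc1 was at 0.26 ± 0.54 (SE).

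In IVG-NT against IVV, 1 member was a DEG, beside 3.29% of genes. It was Psmb9, at 0 in all IVG-NT libraries and at 87 counts over those of IVV, all from replicates 2 and 4. Pooled, it was at least 27.2-fold lower against a floor of 3 counts over the group (edgeR adjusted p = 1). Psmb9 was at 0 in every rRNA-rich library, and IVG-NT holds 1 rRNA-poor library. The call was lost without IVV replicate 2 or 4 or any IVG-NT library, without both rRNA-rich libraries of IVG-NT day 6, with no filter on low counts, with kind as a covariate, under the replicate block and by the DESeq2 Wald test. The 3 libraries of IVG-NT were all above IVV for Psmd1 (log2 fold change 0.42 ± 0.65 (SE), adjusted p = 1) and all below for Psmg2 (log2 fold change -3.56 ± 2.44 (SE), adjusted p = 1), and 11.6% of genes did not overlap. The members' median was -0.22 beside -0.19 for all genes, 0.16 with kind as a covariate and 0.13 in rRNA-poor libraries alone. For Psmd11 edgeR gave log2 fold change 0.54 ± 0.58 (SE), adjusted p = 1, and for Psme1 log2 fold change -2.81 ± 2.26 (SE), adjusted p = 1. Psme4 stood at a log2 fold change of 0.39 ± 0.58 (SE). Both comparisons with IVV share its 3 libraries.

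In IVG-NT against IVG on day 10, which addresses the effect of NT-4 at the end of culture, 0 of 49 members were DEGs, beside 1.24% of genes, and 0 had an unadjusted P under 0.05. The median fold change was 0.11 beside 0.01 for all genes. All 7 alpha and all 7 constitutive beta subunits had positive values, with medians of 0.29 and 0.13, with kind as a covariate 3 of 7 in each class did, with medians of -0.002 and -0.08, and between the single rRNA-poor libraries of the groups all 7 in each did, with medians of 0.61 and 0.27 and no test. The smallest P belonged to Psmb9, at least 4.41-fold lower with counts pooled over the group (edgeR adjusted p = 1). It had 17 counts in IVG, all from replicate 3, and 0 in IVG-NT. Psmd14 was the single member whose groups did not overlap (log2 fold change 0.43 ± 0.94 (SE), adjusted p = 1), beside 3.59% of genes. For Psmd11 edgeR gave log2 fold change 0.38 ± 0.58 (SE), adjusted p = 1. For Psme3 it gave log2 fold change 0.34 ± 0.57 (SE), adjusted p = 1. Psmd13, at -0.93 ± 1.22 (SE), and Psmb8, at -1.63 ± 2.33 (SE), had the smallest P of the lower members after Psmb9. Leaving out IVG-NT replicate 3, its rRNA-poor library, brought the members' median to -0.70.

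In IVG-NT against IVG on day 6, 2 members were DEGs, both higher, beside 11.6% of genes, and neither passed the adjustment. Psmb8 gave a log2 fold change 8.70 ± 3.16 (SE), adjusted p = 0.381, by edgeR, with replicates 1 and 2 high and replicate 3 at 0. With those 2 libraries left out, Psmb8 had 0 counts in IVG-NT day 6 and 13 in IVG day 6, all from replicate 3. Pooled over the group it was at least 2.31-fold lower against the floor of 3 counts, while replicates 1 and 2 of IVG day 6 were also at 0. Psmc3 gave a log2 fold change 1.49 ± 0.70 (SE), adjusted p = 0.429, with the groups overlapping, since IVG-NT day 6 replicate 1 was the lowest of the 6 libraries. Its call was lost without IVG-NT day 6 replicate 2, without any IVG day 6 library, in rRNA-rich libraries alone, with no filter on low counts, in a fit of these 2 groups and under the replicate block. Psmc3 shares exons with Slc39a13 on the other strand.

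Psmc1 was higher in all 3 libraries of IVG-NT day 6 (log2 fold change 1.05 ± 0.54 (SE), adjusted p = 0.455) and Psme3 lower in all 3 (log2 fold change -0.46 ± 0.57 (SE), adjusted p = 0.828), while 8.45% of genes did not overlap. Of the 6 ATPases, 5 had positive values, with a median of 0.79. The members' median was 0.01 beside -0.27 for all genes, and 0.04 beside -0.45 with kind as a covariate. It was 0.89 without replicates 1 and 2 of IVG-NT day 6, where the lone remaining library was taken to vary like the other groups. That library is rRNA-poor while IVG day 6 holds 2 rRNA-rich ones, so NT-4 and kind cannot be told apart in the 0.89. The members lower with the smallest P were Psme4 (log2 fold change -0.72 ± 0.58 (SE), adjusted p = 0.65), Psmb11 (log2 fold change -1.34 ± 1.42 (SE), adjusted p = 0.77) and Psme2 (log2 fold change -0.94 ± 1.14 (SE), adjusted p = 0.821).

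**Figure D5:**
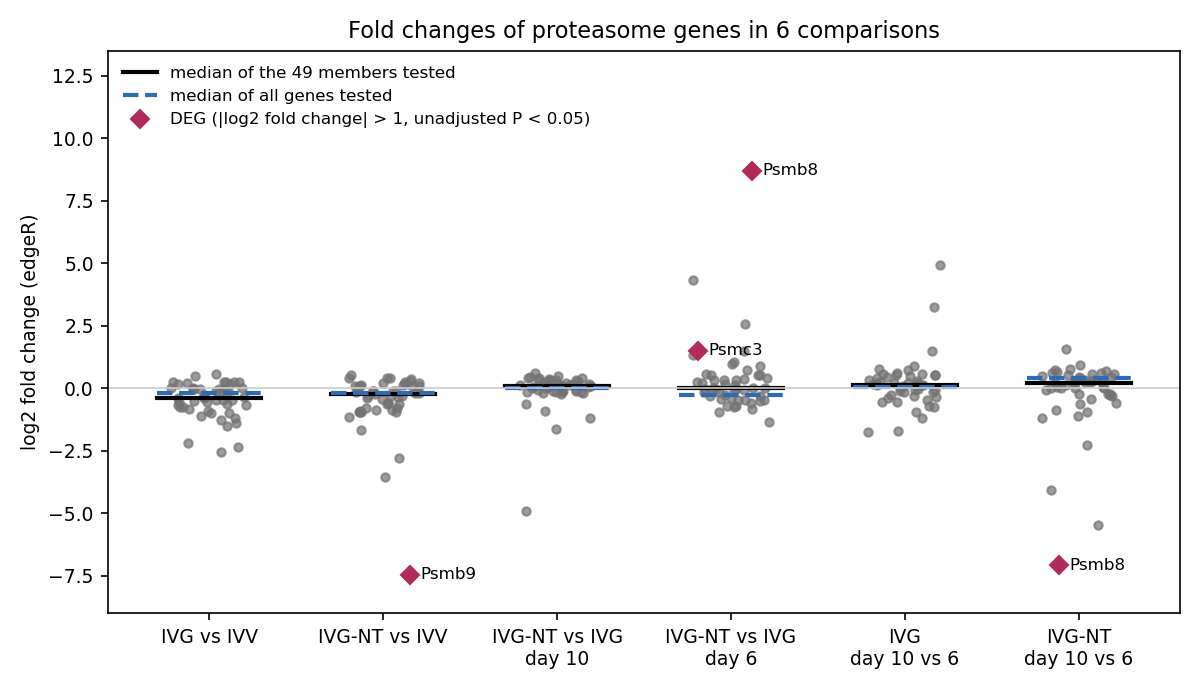
Log2 fold change by edgeR (y axis) of the 49 members tested in the 6 comparisons (x axis), with DEGs as named diamonds, the members' median as a black line and that of all genes as a dashed line. Most points lie between -1 and 1, and the DEGs are Psmb9, Psmb8 and Psmc3.

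In IVG, day 10 against day 6 gave 0 DEGs among the members, beside 2.90% of genes, and 0 members at an unadjusted P under 0.05. The median was 0.14 beside 0.05 for all genes, and all 6 ATPases had positive values with a median of 0.43. Day 10 libraries were all above those of day 6 for Psmd1 (log2 fold change 0.78 ± 0.65 (SE), adjusted p = 1), Psmc1, Psmc3 and Psmc5 and all below for Psmd14 (log2 fold change -0.73 ± 0.94 (SE), adjusted p = 1), beside 7.42% of genes. Psmb5 (log2 fold change -1.20 ± 0.85 (SE), adjusted p = 1) and Psmd13 (log2 fold change -1.75 ± 1.24 (SE), adjusted p = 1) had the smallest P among the members that were lower. Psmb9 had 17 counts on day 10, all from replicate 3, and 0 on day 6, at least 4.78-fold higher when pooled over the group. Psmb8 was at a log2 fold change of 3.25 ± 2.48 (SE) with overlapping groups.

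In IVG-NT, day 10 against day 6 gave 1 DEG among the members, beside 12.7% of genes. Psmb8 was lower on day 10 (log2 fold change -7.08 ± 2.94 (SE), adjusted p = 0.357 by edgeR), a call that was lost without IVG-NT replicate 1 or 2 or without IVG-NT day 6 replicate 1. Without both rRNA-rich libraries of day 6, Psmb8 had 29 counts on day 10, all from replicate 3, and 0 on day 6. Pooled over the group it was at least 5.58-fold higher on day 10, while replicates 1 and 2 of day 10 were also at 0. Psmg2 (log2 fold change -5.47 ± 2.67 (SE), adjusted p = 0.403) and Psmd13 (log2 fold change -2.27 ± 1.26 (SE), adjusted p = 0.457) had the next smallest P. Psme3 was higher in all 3 day 10 libraries (log2 fold change 0.93 ± 0.58 (SE), adjusted p = 0.501) and Psmc1 lower in all 3, beside 11.0% of genes. Psme4 (log2 fold change 0.78 ± 0.58 (SE), adjusted p = 0.578) and Psmb10 (log2 fold change 1.55 ± 1.93 (SE), adjusted p = 0.797) were the other members at positive values with the smallest P. The median was 0.20 beside 0.40 for all genes, and 0.12 beside 0.60 with kind as a covariate. It was -0.82 without replicates 1 and 2 of IVG-NT day 6. The day 6 library left is rRNA-poor while day 10 holds 2 rRNA-rich ones, so day and kind cannot be told apart in the -0.82. This comparison and the one of NT-4 on day 6 share the IVG-NT day 6 libraries.

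The effect of NT-4 was also compared between day 10 and day 6 as an interaction. No member had an adjusted p under 0.05 by edgeR, the smallest being 0.664, and Psmb8 alone had an unadjusted P under 0.05, with 0 genes at an adjusted and 1339 genes at an unadjusted p under 0.05. Of 29 other genes of the pathway, among them Pomp, Adrm1, Vcp and the ubiquitin genes, 0 were DEGs in 4 of the comparisons. In IVG-NT against IVG on day 6, Ufd1 (log2 fold change 3.84) and Nfe2l2 (2.66) were called higher and Nploc4 (-1.71) and Ubqln4 (-3.38) lower, which is 13.8% of the 29 beside 11.6% of all genes. Ufd1 and Nploc4 encode the partners of the VCP segregase, which pulls ubiquitinated proteins from complexes. In IVG-NT, Nploc4, Uba1 and Ube3c were called higher and Nfe2l2 and Ufd1 lower on day 10 than on day 6, which is 17.2% of the 29 beside 12.7% of all genes, and none of these had an adjusted p under 0.05.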

How the data were processed

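The authors removed reads with adaptor or primer sequence or with bases of low quality, used HISAT2 to align what remained to mm10, as the labels also list, and deposited raw counts per Ensembl gene for each of the 15 libraries without normalization. How the counts were taken, and the annotation release, are not given in the sources used here. The table of the whole series held the same columns and was not used. Symbols came from GENCODE vM21 of GRCm38, and 99.5% of the identifiers had one.

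Counts were tested in R 4.3.3 with edgeR 4.0.16 (TMM, filterByExpr with a minimum count of 10, quasi-likelihood F test, 1 fit of 5 group means over 15 libraries) and Benjamini-Hochberg adjustment over all 21009 genes tested. The standard error (SE) is the absolute log2 fold change divided by the square root of the F statistic, so it is derived from the test. The script was checked on simulated data. Normalised CPM used TMM library sizes, while the CPM of cell type markers used all counts of the library, rRNA included. FPKM used all counts of the library and the union of a gene's exons. Groups came from the sample titles. That the libraries of a group came from separate experiments is stated in the study's methods, but not which libraries share one, so p-values measure the spread between these libraries. Intervals of counting were not used, since PCR copies carry no identifiers. In IVG-NT against IVG on day 10 and in IVG day 10 against day 6 the replicate numbers paired the libraries by their deviations (correlations of 0.37 to 0.73 and 0.15 to 0.54). Same-numbered libraries there are also of the same kind, and those of the same kind with other numbers correlated at 0.27 and 0.37 and at 0.19 and 0.26, so number and kind cannot be told apart. The IVV libraries are numbered 2 to 4 by title and 1 to 3 in the deposited columns, and the titles' numbers were used, also for the block. The limit of 5% rRNA counts that sets the kind of library was chosen after the shares were seen.

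The members, their classes and the gene lists were chosen with earlier results of these data known. Members are named by these rules: DEGs, the highest and lowest FPKM of each class, the tissue-restricted genes and Psmc3ip, and the 3 higher and 3 lower with the smallest P per comparison. Exons of 15 members overlap those of another gene, and reads on either strand are counted alike where the counting ignores strand. The 4 pseudogenes that match the symbol had 0 to 78 counts and were left out. With genes at 0 in a whole group set to a bound against 3 counts over the group, the members' medians moved by 0. Such bounds pool the libraries of a group over both kinds and take no account of the spread between them. Alternatives were DESeq2 1.42.0 and its size factors, no filter, the 2 groups alone, the kind of library as a covariate, 1 kind alone, the replicate block and leaving out each library. Of these, rRNA-poor libraries alone and leaving out both rRNA-rich libraries of IVG-NT day 6, were chosen after seeing the data.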

Additional observations from a re-analysis of the deposited data

How the results depend on the processing

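The number of members called as DEGs moved by over 1.5 times in most settings in the 3 comparisons that had any. In IVG-NT against IVV it was 1 and fell to 0 under the DESeq2 Wald test, with no filter on low counts, with the 2 groups alone, with kind as a covariate, in rRNA-rich libraries alone, with the replicate block and without both rRNA-rich libraries of IVG-NT day 6. Psmb9, the DEG there, did not pass the filter with the 2 groups alone or in rRNA-rich libraries alone and was not tested in these. In IVG-NT against IVG on day 6 the number of called members was 2. It became 4 under the Wald test, 1 with no filter and 0 with the 2 groups alone, where Psmb8 did not pass the filter. With kind as a covariate it was 5, beside 15.8% of genes. In IVG-NT day 10 against day 6 the number was 1. It became 3 with DESeq2 size factors, 5 under the Wald test, 2 with no filter and 3 in rRNA-rich libraries alone. With kind as a covariate it was 4, beside 16.9% of genes. It rose from 0 to 1 in IVG against IVV with the 2 groups alone. In IVG day 10 against day 6 it rose from 0 to 1 with kind as a covariate, beside 4.86% of genes. Beyond the main fit, the share of all genes called was worked out only with kind as a covariate. The cause of these moves was not tested.

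Without both rRNA-rich libraries of IVG-NT day 6 the members' median log2 fold change was 0.89 in IVG-NT against IVG on day 6. In IVG-NT day 10 against day 6 it was -0.82. The library that remains is rRNA-poor, while IVG day 6 and IVG-NT on day 10 hold 2 rRNA-rich libraries each. In this setting the signs of Psmb8 (-4.57 and 6.26 in these comparisons), Psmb11 (0.031) and Psme2 (0.36) on day 6 turned. The Psmb8 values were fitted against the 0 counts of the remaining library and are no bounds. With 1 library left out at a time, the fitted fold change of Psmb9 ranged from -5.49 to 0 in IVG-NT against IVG and from 0 to 5.49 in IVG day 10 against day 6, with the 0 from leaving out IVG replicate 3, and that of Psmb10 in IVG-NT day 10 against day 6 ranged from -0.69, without IVG-NT replicate 3, to 8.94.

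Leaving out 1 library at a time gave 0 to 4 called members in IVG-NT against IVV, 1 to 10 in IVG-NT against IVG on day 6 and 0 to 8 in IVG-NT day 10 against day 6. The share of all genes called in these fits was not worked out, so the counts have no background. The median ranged from -1.06 to -0.056 in IVG-NT against IVV, from -0.70 to 0.48 in IVG-NT against IVG on day 10, from -0.75 to 1.11 in IVG-NT day 10 against day 6 and from -0.22 to 0.65 in IVG day 10 against day 6. The lowest of the first 3 came without IVG-NT replicate 3, the value of 1.11 without IVG-NT day 6 replicate 3 and that of 0.65 without IVG day 6 replicate 3, each a rRNA-poor library.

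With the replicate block the median was -0.02 in IVG-NT against IVG on day 10 and 0.12 in IVG day 10 against day 6. In both, 0 members were called. Same-numbered libraries there are also of the same kind, so the block takes up number and kind alike. In the other comparisons same-numbered libraries had correlations of deviations of -0.52 to 0.33. There the block changed no other count than that of IVG-NT against IVV, though in IVG-NT against IVG on day 6 Psmc3 lost its call and Psmc1 gained one. With IVV the block used the numbers of the titles and rests on the 2 shared ones.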
